A study of Mus musculus with 8 samples.

Results

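The 10 genes of glucose uptake and glycolysis described here were chosen by name from the pathway, with earlier results of these data known, and were followed across 8 RNA-seq libraries of mouse bone marrow-derived macrophages. They are Slc2a1, Hk1, Hk2, Gpi1, Pfkl, Aldoa, Tpi1, Pgk1, Pkm and Ldha, 10 of the 22165 genes in the count table, and 10 of 10 passed the filter on low counts that left 11079 genes for testing. All cells came from C57BL/6 mice, were grown from bone marrow for 7 days with M-CSF, and formed 4 groups of 2 libraries: Nrf2-/- (knockout) cells given 250 µM dimethyl itaconate (DI) for 12 h, wild-type cells given the same DI, untreated knockout cells and untreated wild-type cells. The labels give a commercial breeder for the knockout mice and name no source for the wild-type mice, and they do not state whether libraries of 1 group derive from different mice. The p-values therefore speak only to the variation among these libraries, which may be technical. No vehicle is named for the untreated cells.

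Glycolysis splits glucose into pyruvate in the cytosol and yields ATP and NADH without oxygen. Glucose enters through GLUT carriers, is trapped as glucose-6-phosphate by hexokinases, passes through the isomerase, phosphofructokinase, aldolase and triose phosphate steps, and leaves as pyruvate or, after lactate dehydrogenase, as lactate. Macrophages activated by bacterial products are known for a strong use of this pathway. DI is a cell-permeable, electrophilic ester of itaconate, a metabolite that activated macrophages make from the citric acid cycle, and NRF2, encoded by Nfe2l2, is the transcription factor that switches on antioxidant genes after electrophile exposure.

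Total counts ranged from 5554288 to 15680671 per library, from reads near transcript 3′ ends. Levels are given as CPM, which are counts divided by a library size scaled by the TMM method and brought to 1 common total. Nfe2l2 had 67.7 and 88.1 CPM in knockout DI libraries and 299 and 416 CPM in wild-type DI libraries, with 40.2 and 53 CPM in untreated knockout and 230 and 454 CPM in untreated wild-type libraries. All 4 knockout libraries lay below all wild-type ones, although 3′ reads need not come from the deleted part of the gene. Nqo1, an NRF2 target, had 1.28 and 0.405 CPM in knockout DI against 85.1 and 106 CPM in wild-type DI libraries. All 12 of 12 macrophage markers were detected, with summed levels of 6568 to 10575 CPM per library. The neutrophil list summed to 248 to 390 CPM, the stromal list to 44.3 to 132 CPM and the dendritic cell list to 6.08 to 12.6 CPM. The lymphocyte list, in which Ncr1 had no count, summed to at most 2.52 CPM. The mast cell and basophil list reached at most 1.3 CPM and the erythroid list 0.699 CPM. In bulk samples, fewer cells of a type and less RNA per cell cannot be told apart.

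With DI, 0 of 10 genes passed the test in knockout cells, where 8.48% of all genes tested did. With 10 genes, a count of 0 is near that share. In wild-type cells DI raised 4 of the 10, namely Pkm, Slc2a1, Aldoa and Hk2, where 6.51% of all genes rose. Under DI the same 4 genes were lower in knockout than in wild-type cells, as were 9.74% of all genes. Without DI, 0 of 10 passed the test between genotypes, where 0.0812% of all genes were higher and 0.524% lower in knockout. The DI effect was smaller in knockout for 2 of 10, Pkm and Slc2a1, with 2.59% of all genes passing in that direction. A gene is counted as higher or lower where edgeR's quasi-likelihood test gave a Benjamini-Hochberg adjusted p under 0.05 over all 11079 genes. Changes are log2 fold changes ± a standard error derived from the change and the F statistic of that test.

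The start regions of 3 of the 4 genes that rose with DI in wild type are shown so that they can be read side by side. That of Ldha, which did not pass that test, is shown too. RefSeq (GRCm38.p6) gave 15 windows for the 10 genes, each running from 250 bases before to 50 bases after an annotated start. These strings were searched on both strands: ACGTG and GCGTG, the cores of the hypoxia response element, CACGTG, an E-box that also holds ACGTG, and TGACNNNGC, the core of the antioxidant response element that NRF2 binds. Capitals mark any match on either strand. Each window shown holds a match. The first windows of Pkm, Aldoa and Hk1 and the only windows of Gpi1 and Tpi1 hold none. The Hk2 window, not shown, holds 2 ACGTG matches. The Slc2a1 window is chr4:119108495-119108794 (+), the second Pkm window chr9:59656977-59657276 (+), the second Aldoa window chr7:126799205-126799504 (-) and the first Ldha window chr7:46845554-46845853 (+), each written 5′ to 3′ on the strand of its gene.
Slc2a1 promoter: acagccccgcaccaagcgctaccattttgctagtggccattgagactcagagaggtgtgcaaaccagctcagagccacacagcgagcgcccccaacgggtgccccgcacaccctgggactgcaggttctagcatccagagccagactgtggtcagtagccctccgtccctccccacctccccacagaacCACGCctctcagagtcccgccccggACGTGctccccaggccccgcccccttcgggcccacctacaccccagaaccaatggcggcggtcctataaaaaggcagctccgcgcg
Pkm promoter: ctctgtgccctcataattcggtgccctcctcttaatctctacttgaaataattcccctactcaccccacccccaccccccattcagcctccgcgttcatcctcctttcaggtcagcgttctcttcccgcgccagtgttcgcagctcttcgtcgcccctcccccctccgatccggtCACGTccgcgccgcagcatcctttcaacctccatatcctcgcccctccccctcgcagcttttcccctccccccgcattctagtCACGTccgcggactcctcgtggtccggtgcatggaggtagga
Aldoa promoter: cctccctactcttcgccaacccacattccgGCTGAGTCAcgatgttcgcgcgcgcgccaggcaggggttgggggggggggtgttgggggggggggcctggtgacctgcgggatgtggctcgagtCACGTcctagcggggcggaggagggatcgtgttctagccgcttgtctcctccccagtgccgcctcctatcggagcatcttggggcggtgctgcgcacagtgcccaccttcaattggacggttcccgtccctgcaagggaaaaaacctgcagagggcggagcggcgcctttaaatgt
Ldha promoter: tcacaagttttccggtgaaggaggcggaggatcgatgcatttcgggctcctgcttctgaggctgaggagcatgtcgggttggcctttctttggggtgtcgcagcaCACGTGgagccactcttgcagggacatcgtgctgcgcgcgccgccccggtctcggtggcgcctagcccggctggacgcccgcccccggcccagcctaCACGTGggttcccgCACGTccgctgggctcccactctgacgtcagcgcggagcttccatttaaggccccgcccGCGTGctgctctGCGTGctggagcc

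ACGTG was present in 8 of the 15 member windows, from 7 genes, and in 19.6% of all 32851 windows in the table. GCGTG was present in 5 member windows from 4 genes and in 32.4% of all windows. CACGTG was in 1 member window, that of Ldha shown above, where 4 of the 5 ACGTG matches lie inside its 2 CACGTG places, and in 7.15% of all windows. TGACNNNGC was in 2 member windows, 1 of Hk1 and the Aldoa window shown, and in 12.4% of all windows. These are letter matches, not binding sites, and several windows of a gene overlap.

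Slc2a1 (ENSMUSG00000028645, mm10 chr4:119108711-119137983) encodes GLUT1, the main basal glucose carrier of most cells. It had 25.6 and 30.2 CPM in knockout DI, 120 and 122 CPM in wild-type DI, 26.2 and 22.5 CPM in untreated knockout and 39.5 and 35.6 CPM in untreated wild-type libraries. Both wild-type DI libraries stood above the other 6, and the knockout libraries of both treatments overlapped. Raw counts were 150 to 1306 per library, so the level rested on at least 150 reads each. In knockout cells the change with DI was 0.20 ± 0.22, with a 95% interval of -0.28 to 0.68 (edgeR, adjusted p = 0.603). DI raised Slc2a1 by 1.68 ± 0.22 (3.21-fold) in wild-type cells (edgeR, adjusted p = 0.000348), and this call held with any 1 of the 8 libraries left out.

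The 2 hexokinase members encode enzymes that phosphorylate glucose on entry. Hk2 (ENSMUSG00000000628, chr6:82725025-82774454), the inducible form, had 37.1 and 30.5 CPM in knockout DI, 93.6 and 73.2 CPM in wild-type DI, 38.3 and 43.2 CPM in untreated knockout and 48.9 and 52.6 CPM in untreated wild-type libraries. Its wild-type DI libraries were the highest pair, and the knockout DI pair was the lowest. DI raised Hk2 by 0.71 ± 0.22 (1.64-fold) in wild-type cells, just inside the threshold (edgeR, adjusted p = 0.0497). This call was lost without wild-type DI replicate 1 (edgeR, adjusted p = 0.2), without either untreated wild-type library (0.167 and 0.148) and without either untreated knockout library (0.0718 and 0.0843). Hk1 (ENSMUSG00000037012, chr10:62268855-62379908), the housekeeping form, had 51.1 and 37.5 CPM in knockout DI, 44 and 35 CPM in wild-type DI, 41.3 and 44 CPM in untreated knockout and 69 and 61.5 CPM in untreated wild-type libraries. Here the untreated wild-type pair was the highest and the other 3 groups overlapped. An annotated gene, Hk1os, lies antisense to Hk1, and no label says if strand was used in counting. In wild-type cells the change of Hk1 with DI was -0.73 ± 0.23 (edgeR, adjusted p = 0.0551), outside the threshold, while DESeq2 gave an adjusted p of 0.0451.

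The upper enzymes Gpi1 (ENSMUSG00000036427, chr7:34201330-34230336), which turns glucose-6-phosphate into fructose-6-phosphate, and Pfkl (ENSMUSG00000020277, chr10:77986947-78010083), the liver-type phosphofructokinase, did not pass the test in any comparison. Gpi1 had 49.4 and 62.9 CPM in knockout DI, 84 and 71 CPM in wild-type DI, 43.2 and 56.5 CPM in untreated knockout and 50.7 and 58.5 CPM in untreated wild-type libraries. The wild-type DI pair was again above the other 6, with a change in wild type of 0.50 and a 95% interval of -0.01 to 1.01 (edgeR, adjusted p = 0.167). Pfkl had 8.22 and 8.11 CPM in knockout DI, 7.23 and 13.3 CPM in wild-type DI, 7.17 and 13.5 CPM in untreated knockout and 9.7 and 11.9 CPM in untreated wild-type libraries. All 4 groups of Pfkl overlapped or lay close, its counts were 41 to 184 per library, and the interval of its change in wild type, -0.80 to 0.70, leaves room for changes in either direction.

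Aldoa (ENSMUSG00000030695, chr7:126795234-126800751), the aldolase that splits fructose bisphosphate, had 153 and 245 CPM in knockout DI, 487 and 624 CPM in wild-type DI, 201 and 217 CPM in untreated knockout and 251 and 266 CPM in untreated wild-type libraries. The wild-type DI pair stood far above the rest, and the 2 knockout DI libraries differed from each other by more than the untreated groups did. In knockout cells its change with DI was -0.07 ± 0.25, with a 95% interval of -0.62 to 0.48. DI raised Aldoa by 1.10 ± 0.26 (2.15-fold) in wild-type cells (edgeR, adjusted p = 0.013), a call lost without wild-type DI replicate 2 (0.0584) or untreated wild-type replicate 1 or 2 (0.0769 and 0.0717). Aldoa has 2 annotated pseudogenes that carry its symbol, Pgk1 has 3 and Ldha has 2, so reads of these genes may be split or lost in counting.

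Tpi1 (ENSMUSG00000023456, chr6:124810586-124814296), which interconverts the triose phosphates, had 136 and 113 CPM in knockout DI, 179 and 147 CPM in wild-type DI, 99.6 and 104 CPM in untreated knockout and 111 and 96.5 CPM in untreated wild-type libraries. Pgk1 (ENSMUSG00000062070, chrX:106187100-106203699), an ATP-yielding kinase, had 3.95 and 10.9 CPM in knockout DI, 15.1 and 13.8 CPM in wild-type DI, 5.77 and 3.15 CPM in untreated knockout and 6.73 and 6.02 CPM in untreated wild-type libraries. For both genes the wild-type DI pair was the highest without passing the test: the change in wild type was 0.65 ± 0.22 for Tpi1 (edgeR, adjusted p = 0.0635) and 1.18 ± 0.41 for Pgk1 (edgeR, adjusted p = 0.0688). DESeq2 placed both inside the threshold, with adjusted p of 0.0386 and 0.0489. Pgk1 rested on 29 to 148 reads per library, and its 2 knockout DI libraries differed most of all groups. Its change with DI in knockout was 0.78, with a 95% interval of -0.19 to 1.75 (edgeR, adjusted p = 0.288).

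Pkm (ENSMUSG00000032294, chr9:59656368-59679375), pyruvate kinase of the muscle and M2 forms, had 210 and 262 CPM in knockout DI, 1044 and 999 CPM in wild-type DI, 236 and 226 CPM in untreated knockout and 319 and 282 CPM in untreated wild-type libraries. Its wild-type DI libraries were separated from the other 6 by a wide gap, and the knockout libraries of both treatments overlapped. The change of Pkm with DI was 0.03 ± 0.21 in knockout cells, with a 95% interval of -0.43 to 0.50 (edgeR, adjusted p = 0.94). DI raised it by 1.76 ± 0.22 (3.4-fold) in wild-type cells (edgeR, adjusted p = 0.00028), a call that held with any 1 library left out. The count table has 1 row for Pkm, so its splice forms are not separated. Ldha (ENSMUSG00000063229, chr7:46841475-46855627), which turns pyruvate into lactate, had 132 and 141 CPM in knockout DI, 216 and 200 CPM in wild-type DI, 176 and 186 CPM in untreated knockout and 194 and 159 CPM in untreated wild-type libraries. Ldha did not pass this test with DI in wild type, at 0.24 with a 95% interval of -0.22 to 0.69 (edgeR, adjusted p = 0.482). In knockout its change was -0.41, with a 95% interval of -0.87 to 0.05 (edgeR, adjusted p = 0.237). Both knockout DI libraries lay below both untreated knockout libraries for Ldha, as for Hk2, while for Tpi1 both lay above. The share of all genes separated in this way was not counted.

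**Figure D1:**
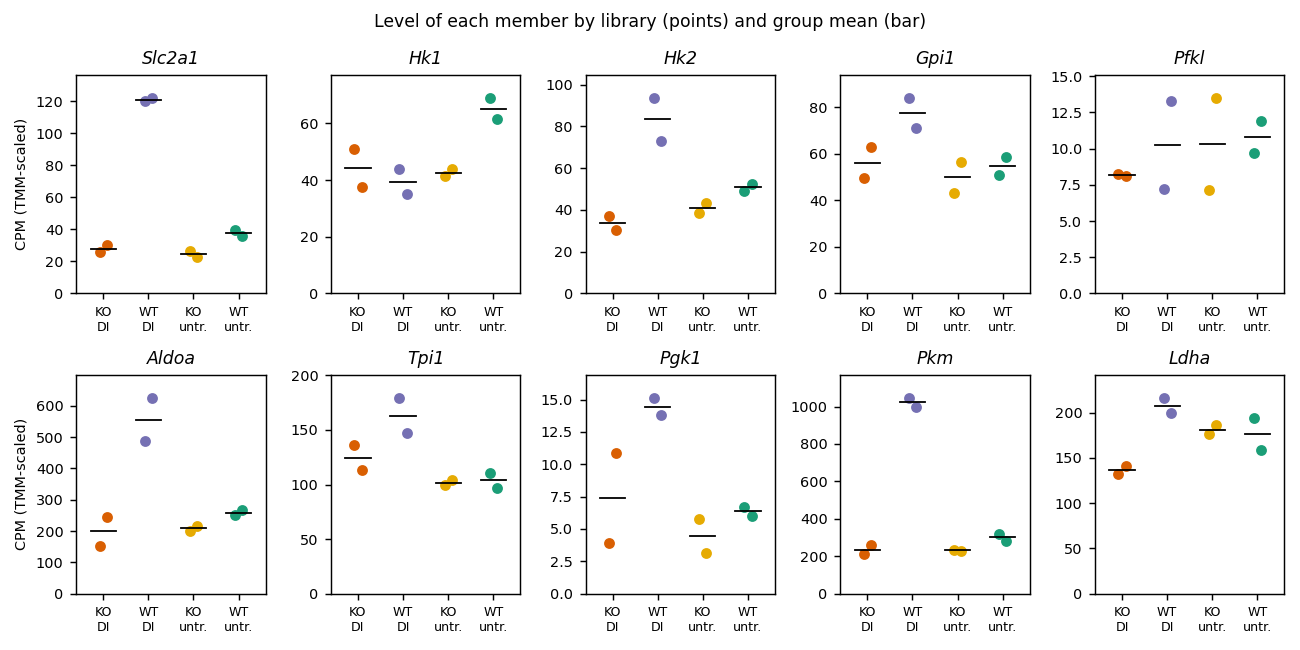
Level of each of the 10 genes in CPM per library (points) with the mean of the 2 libraries (line), in knockout DI, wild-type DI, untreated knockout and untreated wild-type cells. For 8 of the 10 genes, all but Hk1 and Pfkl, both wild-type DI libraries lie above the other 6, as they do for 16.6% of all genes tested.

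In knockout cells 0 of 10 were higher and 0 lower by edgeR, against 8.48% of all genes in either direction. DESeq2 also called 0, no member had an unadjusted p under 0.05 (0 of 10), and the members' median change was 0.04. Over the 10 genes in wild-type cells, DI gave 4 genes higher and 0 lower, against 6.51% of all genes tested higher and 8.68% lower. The median change of the members was 0.68, beside -0.02 over all genes tested. The count of higher members fell to 2 without either untreated wild-type library and was 2 to 5 over the 8 fits that leave out 1 library. The summed level of the 10 genes was 806 and 941 CPM in knockout DI, 2290 and 2299 CPM in wild-type DI, 874 and 915 CPM in untreated knockout and 1100 and 1030 CPM in untreated wild-type libraries. The wild-type DI libraries lay above the range of 806 to 1100 CPM of the others. Without Pkm and Aldoa, the sum of the other 8 was 443 and 433 CPM in knockout DI, 759 and 675 CPM in wild-type DI, 438 and 472 CPM in untreated knockout and 529 and 482 CPM in untreated wild-type libraries. The same 2 wild-type DI libraries had 1.59% and 2.1% of counts from mitochondrial transcripts, against 1.02% to 1.54% in the other 6. On the first principal component of the genes tested, which held 44.9% of the variance, they lay at 65.6 and 62.2, against -33.8 to -8.44 for the other 6. The part of these in the members' changes was not tested.

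Under DI, knockout cells had lower Slc2a1, Hk2, Aldoa and Pkm than wild-type cells, 4 of 10 lower and 0 higher, against 9.74% of all genes tested lower and 11.4% higher. The change was -2.11 ± 0.22 for both Slc2a1 (edgeR, adjusted p = 5.72e-05) and Pkm (edgeR, adjusted p = 5.74e-05). It was -1.48 ± 0.26 for Aldoa (edgeR, adjusted p = 0.0021) and -1.30 ± 0.23 for Hk2 (edgeR, adjusted p = 0.00215). These 4 calls held with any 1 library left out. Ldha, at -0.61 ± 0.21, lay just outside the threshold by edgeR (adjusted p = 0.0575) and inside it by DESeq2 (adjusted p = 0.0403). Pgk1, at -0.95 ± 0.41, was also outside (edgeR, adjusted p = 0.116), and depended on its knockout DI libraries, at -0.39 (adjusted p = 0.515) without replicate 1 and -1.86 (adjusted p = 0.0124) without replicate 2. Because the wild-type DI libraries enter this comparison and that of DI with untreated in wild type, the 2 sets of 4 calls are not separate evidence.

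Without DI, 0 of 10 members were higher and 0 lower in knockout than in wild-type cells by edgeR, against 0.0812% of all genes higher and 0.524% lower. DESeq2 also called 0, and 2 members had an unadjusted p under 0.05. The median change was -0.31, and 9 of 10 estimates were below 0, of which those of Pfkl and Tpi1 lay above 0 with upper quartile scaling or total counts. Over all genes tested 51.1% of estimates were below 0. Both untreated knockout libraries lay below both untreated wild-type libraries for Slc2a1, Hk1, Hk2, Aldoa, Pgk1 and Pkm, a separation shown by 21.7% of all genes tested. For Slc2a1 the change was -0.63 ± 0.22, with a 95% interval of -1.10 to -0.15 that does not include 0 before adjustment (edgeR, adjusted p = 0.294). For Hk1 it was -0.61 ± 0.23 (edgeR, adjusted p = 0.354).

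Stromal markers moved with genotype in the same libraries. The 7 genes of that list summed to 44.3 to 44.7 CPM in knockout DI, against 107 to 119 CPM in wild-type DI libraries, and to 47.4 to 48.5 CPM in untreated knockout against 89.7 to 132 CPM in untreated wild-type libraries, with Lum at 0 throughout. Of the 6 stromal markers tested, 5 were lower in knockout under DI and 1 without DI. With DI, 1 was lower and 0 higher in knockout cells, and 0 changed in wild-type cells. Macrophage markers summed to 6568 to 7720 CPM in knockout DI, 8253 to 8261 CPM in wild-type DI, 10370 to 10575 CPM in untreated knockout and 8987 to 9732 CPM in untreated wild-type libraries. Of these 12 markers 4 were lower with DI in knockout, 3 with DI in wild type and 2 in knockout against wild type under DI. In these comparisons 0 of the 12 were higher. The 10 neutrophil markers summed to 248 to 308 CPM in knockout DI, 252 to 325 CPM in wild-type DI, 269 to 311 CPM in untreated knockout and 377 to 390 CPM in untreated wild-type libraries, and 1 of the 8 tested was lower in knockout under DI. Of the 3 dendritic cell markers tested 1 was higher in knockout under DI, where 11.4% of all genes were. Over all genes tested, 9.74% were lower in knockout under DI, 0.524% lower in knockout without DI and 8.68% lower with DI in wild type. With DI in knockout 8.48% changed in either direction. The part of these marker shifts in the changes with DI and between genotypes was not tested.

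**Figure D2:**
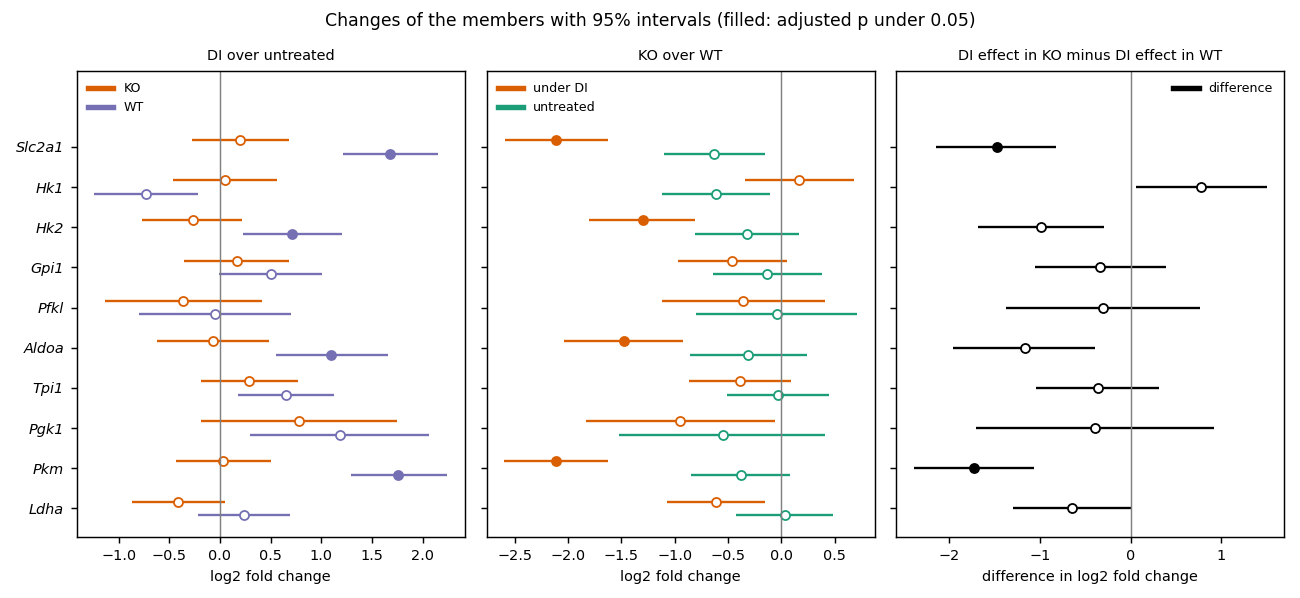
Log2 fold changes of the 10 genes with 95% intervals (lines) for DI over untreated in knockout and in wild-type cells, for knockout over wild type with and without DI, and for the difference between the DI effects. Filled points passed the test: Slc2a1, Hk2, Aldoa and Pkm in wild-type DI and between genotypes under DI, and Slc2a1 and Pkm for the difference.

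The DI effect in knockout minus that in wild type was tested as an interaction. It passed for 2 of 10 members, Pkm and Slc2a1, both with a smaller DI effect in knockout, against 2.59% of all genes tested in that direction and 4.96% in the other. The difference was -1.73 ± 0.30 for Pkm, with a 95% interval of -2.39 to -1.07 (edgeR, adjusted p = 0.00672), and this held with any 1 library left out. For Slc2a1 it was -1.48 ± 0.31, with a 95% interval of -2.15 to -0.82 (edgeR, adjusted p = 0.0145), and was lost without untreated knockout replicate 1 (0.0746) or untreated wild-type replicate 2 (0.0575). For Aldoa it was -1.17 ± 0.36 and outside the threshold (edgeR, adjusted p = 0.0663), while DESeq2 gave an adjusted p of 0.0254. For Hk2 it was -0.99 ± 0.32 (edgeR, adjusted p = 0.0777). The members' median difference was -0.52.

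The other genes of glucose use were taken from lists of 98 names, 97 of them in the table and 76 tested, of which 23 passed the test in at least 1 comparison. Over these 76 genes, 4 were higher and 4 lower with DI in knockout, where 8.48% of all genes changed. With DI in wild type 14 were higher and 1 lower, against 6.51% and 8.68% of all genes. In knockout against wild type under DI 3 were higher and 13 lower, against 11.4% and 9.74% of all genes. Without DI the count was 0 by edgeR or DESeq2, with 5 at an unadjusted p under 0.05. For the difference of DI effects 1 was higher and 6 lower, against 4.96% and 2.59% of all genes. The wider list has no test of its own, and its median change was -0.07 with DI in knockout and 0.17 in wild type.

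Of the 20 other glycolytic enzymes 12 were tested, and 4 of the 12, Hk3, Gapdh, Pgam1 and Eno1, rose with DI in wild type, as did 6.51% of all genes. Pgam1, which moves a phosphate on phosphoglycerate, had 140 and 145 CPM in knockout DI, 424 and 387 CPM in wild-type DI, 146 and 151 CPM in untreated knockout and 143 and 124 CPM in untreated wild-type libraries. It changed by 1.60 ± 0.21 in wild type (edgeR, adjusted p = 0.000392) and the difference of DI effects, knockout minus wild type, was -1.66 ± 0.29 (edgeR, adjusted p = 0.00678), both kept with any 1 library left out. Eno1, an enolase with a retrogene copy, Eno1b, that could share its reads, changed by 1.16 ± 0.24 (edgeR, adjusted p = 0.0073), also kept. Gapdh, a dehydrogenase with many pseudogenes that could split its reads, changed by 1.20 ± 0.26 (edgeR, adjusted p = 0.00845), a call lost without wild-type DI replicate 2 (0.0604) or untreated wild-type replicate 2 (0.064). Hk3, a further hexokinase, changed by 0.83 ± 0.22 (edgeR, adjusted p = 0.0241), lost without wild-type DI replicate 2 (0.0839), untreated wild-type replicate 1 (0.0563) or 2 (0.154). Without wild-type DI replicate 2 or untreated wild-type replicate 2, only 2 enzymes remained.

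In the same list, 1 of 12 enzymes was higher and 0 lower with DI in knockout cells, where 8.48% of all genes changed. Pfkp, the platelet-type phosphofructokinase, had 84.4 and 113 CPM in knockout DI against 51.8 and 61.2 CPM in untreated knockout libraries, a change of 0.80 ± 0.23 (edgeR, adjusted p = 0.0472) that was lost in 6 of the 8 fits leaving out 1 library. Between genotypes under DI, Hk3, Adpgk, Gapdh, Pgam1 and Eno1 were lower in knockout and Pfkp was higher. Of the 12 enzymes tested these are 5 lower and 1 higher, against 9.74% and 11.4% of all genes. Adpgk, an ADP-dependent glucokinase, had 14 and 22.2 CPM in knockout DI against 39.4 and 38.1 CPM in wild-type DI libraries. The 5 lower enzymes became 3 without knockout DI replicate 1, where Adpgk and Eno1 were outside the threshold (edgeR, adjusted p = 0.0949 and 0.0914). Eno1 was also lost without wild-type DI replicate 1 (0.066), and Pfkp without knockout DI replicate 2 (0.0967) or wild-type DI replicate 1 (0.088) or 2 (0.0598). Hk3, Gapdh and Pgam1 had a smaller DI effect in knockout, and 1 of these 3 was left without untreated knockout replicate 2 or untreated wild-type replicate 2. None of the 5 genes that set fructose-2,6-bisphosphate, the allosteric activator of phosphofructokinase, passed the test by edgeR or DESeq2 in any comparison, with changes in wild type of -0.23 to 0.61. The count at an unadjusted p under 0.05 was 1 with DI in knockout, 0 with DI in wild type, 2 between genotypes under DI, 0 without DI and 1 for the difference.

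Of 10 other names on glucose carriers and their regulation, 5 were tested and 0 changed with DI in wild type by edgeR or DESeq2, with 1 at an unadjusted p under 0.05. Over all genes, 6.51% were higher and 8.68% lower with DI in wild type. In knockout cells 2 of the 5, Txnip and Slc2a9, fell and 0 rose, where 8.48% of all genes changed in either direction. Txnip, whose protein restrains glucose uptake, had 230 and 272 CPM in knockout DI, 257 and 264 CPM in wild-type DI, 553 and 535 CPM in untreated knockout and 358 and 349 CPM in untreated wild-type libraries. It changed by -1.11 ± 0.21 in knockout (edgeR, adjusted p = 0.00973), a call lost without knockout DI replicate 1 (0.0731) or untreated knockout replicate 1 (0.0928) or 2 (0.0757). In wild type the change was -0.44 ± 0.21 (edgeR, adjusted p = 0.17). Slc2a9, a urate carrier of the GLUT family, changed by -1.31 ± 0.36 in knockout (edgeR, adjusted p = 0.0419), which was lost in 6 of the 8 fits that leave out 1 library.

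Pyruvate and lactate handling gave mixed directions among 15 genes tested. With DI in wild type 3 were higher and 1 lower, against 6.51% and 8.68% of all genes. Between genotypes under DI 1 was higher and 3 lower in knockout, against 11.4% and 9.74%. With DI in knockout 0 were higher and 1 lower, where 8.48% of all genes changed in either direction. Slc16a3 (MCT4, a lactate exporter) rose by 1.43 ± 0.28 in wild type (edgeR, adjusted p = 0.00524) and Pdp1, a phosphatase that activates pyruvate dehydrogenase, by 1.07 ± 0.21 (edgeR, adjusted p = 0.00561), both kept with any 1 library left out. Mpc1, a subunit of the mitochondrial pyruvate carrier, rose by 0.74 ± 0.22 (edgeR, adjusted p = 0.0413), a call lost without either library of any of the wild-type DI, untreated knockout and untreated wild-type groups (lowest adjusted p 0.0602, highest 0.163). Slc16a7 (MCT2, a high-affinity monocarboxylate carrier) had 15.5 and 18.5 CPM in knockout DI, 7.23 and 5.59 CPM in wild-type DI, 12.9 and 13.3 CPM in untreated knockout and 16.3 and 22.2 CPM in untreated wild-type libraries. It fell with DI in wild type, with a change of -1.60 ± 0.27 (edgeR, adjusted p = 0.00192), and the difference of DI effects was 1.97 ± 0.37 (edgeR, adjusted p = 0.00949), the difference being lost without untreated knockout replicate 1 (0.0515). Pdk3, a kinase that inactivates pyruvate dehydrogenase, fell with DI in knockout, with a change of -1.80 ± 0.40 (edgeR, adjusted p = 0.0196), lost without any 1 of the 4 knockout libraries. Between genotypes under DI, Slc16a7 was higher and Slc16a3, Mpc1 and Pdp1 were lower in knockout, of which Mpc1, at -1.34 ± 0.23 (edgeR, adjusted p = 0.00165), kept its call with any 1 library left out, while Pdp1 lost it in 8 of 8 such fits and Slc16a3 in 7.

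Among 9 tested genes of gluconeogenesis and glycogen, 2, Gbe1 and Pgm1, rose with DI in wild type, as did 6.51% of all genes. Between genotypes under DI 1 was higher and 2 lower in knockout, against 11.4% and 9.74%. Gbe1, the glycogen branching enzyme, had 12.9 and 19.6 CPM in knockout DI, 239 and 342 CPM in wild-type DI, 15 and 14.1 CPM in untreated knockout and 22.8 and 29.6 CPM in untreated wild-type libraries. Its rise of 3.47 ± 0.29 (11.1-fold) in wild type (edgeR, adjusted p = 1.63e-05) and the difference of DI effects of -3.31 ± 0.40 (edgeR, adjusted p = 0.00115) both held with any 1 library left out. Pgm1, a phosphoglucomutase that links glucose-1-phosphate with glucose-6-phosphate, had 12.6 and 11.4 CPM in knockout DI against 30.2 and 32.3 CPM in wild-type DI, and 11 and 11.4 CPM in untreated knockout against 9.52 and 10.6 CPM in untreated wild-type libraries. Its rise in wild type was 1.63 ± 0.22 (edgeR, adjusted p = 0.0005), and the difference of DI effects was -1.53 ± 0.32 (edgeR, adjusted p = 0.0152), lost without untreated knockout replicate 1 (0.0572) or 2 (0.0753). Pck2, mitochondrial phosphoenolpyruvate carboxykinase, went the other way, higher in knockout DI at 65.1 and 71.2 CPM than in wild-type DI at 30.8 and 31.7 CPM, a change of 1.13 ± 0.22 (edgeR, adjusted p = 0.00406). It also rose with DI in knockout, by 0.83 ± 0.22 (edgeR, adjusted p = 0.0378), a call lost without any 1 of the 4 knockout libraries.

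**Figure D3:**
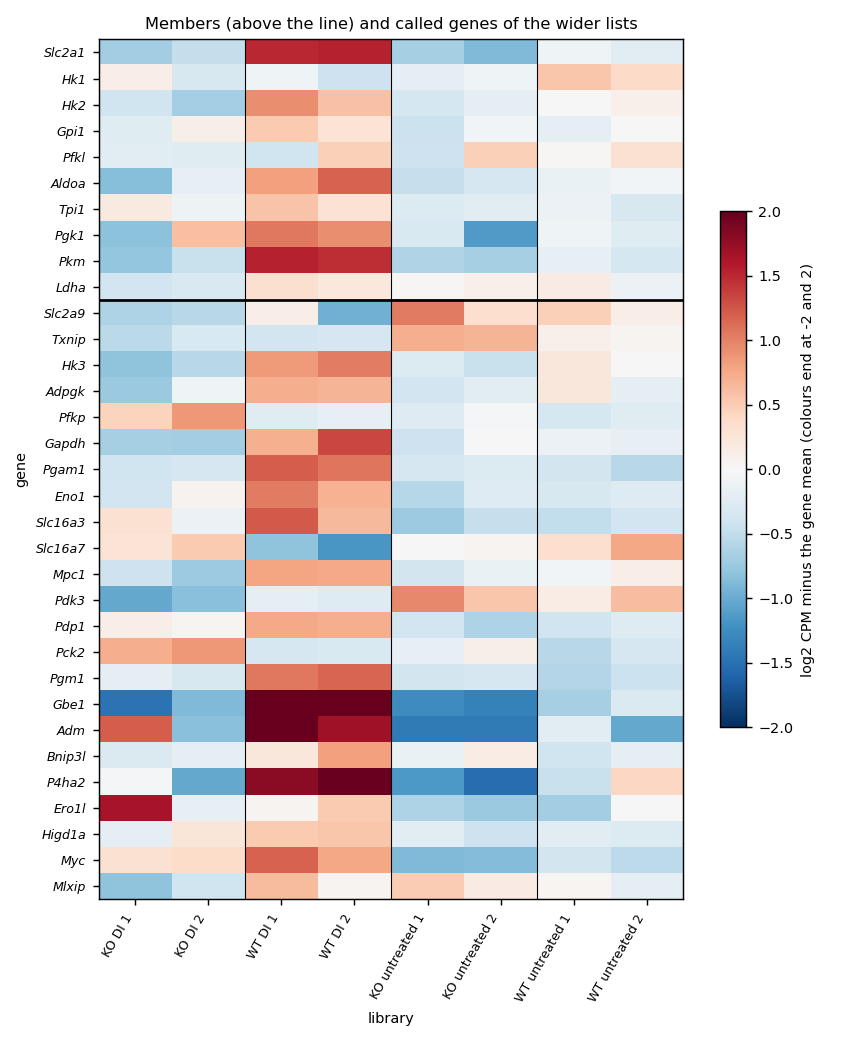
Log2 CPM of 33 genes (the 10 members and the 23 wider-list genes that passed the test in at least 1 comparison), centred per gene over the 8 libraries, with knockout DI and wild-type DI libraries left of the untreated ones. The wild-type DI columns are the highest for most members, for Pgam1 and for Gbe1.

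Of 22 tested genes on a list of HIF-1 targets and regulators, which answer low oxygen, Adm, Bnip3l, P4ha2 and Higd1a were higher with DI in wild type, 4 of 22 against 6.51% of all genes, and the count fell to 0 to 2 without 5 of the 8 libraries in turn. P4ha2, a collagen prolyl hydroxylase, had 4.06 and 1.93 CPM in knockout DI, 14.9 and 17 CPM in wild-type DI, 1.75 and 1.3 CPM in untreated knockout and 2.97 and 5.63 CPM in untreated wild-type libraries, a change in wild type of 1.87 ± 0.38 (edgeR, adjusted p = 0.00612), lost without untreated wild-type replicate 1 (0.0528). Adm had 3 and 1 reads in the untreated wild-type libraries, so its size is not given. Between genotypes under DI 0 of the 22 were higher and 2 lower in knockout, against 11.4% and 9.74% of all genes. The difference of DI effects passed for 0 of the 22 by edgeR and 1 by DESeq2, against 4.96% of all genes higher and 2.59% lower by edgeR. With DI in knockout 1 was higher and 0 lower, where 8.48% of all genes changed in either direction. Ero1l, a folding oxidase of the endoplasmic reticulum, was higher with DI in knockout at 139 and 39.5 CPM against 28.7 and 26.2 CPM in untreated knockout libraries, a call lost in 7 of the 8 fits that leave out 1 library, with an edgeR adjusted p of 0.429 without knockout DI replicate 1. Hif1a itself had 201 and 152 CPM in knockout DI, 85.3 and 126 CPM in wild-type DI, 125 and 99.9 CPM in untreated knockout and 111 and 153 CPM in untreated wild-type libraries, and did not pass the test by edgeR in any comparison. In knockout against wild type under DI its change was 0.74 ± 0.27, with an adjusted p of 0.0706 by edgeR and 0.0477 by DESeq2. A separate list held 9 transcription factors known to act on glycolytic genes, 8 of them tested. With DI in knockout 1 was higher and 1 lower, where 8.48% of all genes changed in either direction. In wild type 1 was higher and 0 lower with DI, against 6.51% and 8.68%. Between genotypes under DI 0 were higher and 1 lower in knockout, against 11.4% and 9.74%. For the difference of DI effects 0 were higher and 1 lower, against 4.96% and 2.59%. Of this list, Myc rose with DI in knockout by 1.23 ± 0.23 (edgeR, adjusted p = 0.0104) and in wild type by 1.44 ± 0.23 (edgeR, adjusted p = 0.00129). The call in knockout was lost without untreated knockout replicate 1 or 2 (edgeR, adjusted p = 0.0973 each), and that in wild type held with any 1 library left out. Its libraries held 30 and 31.1 CPM in knockout DI, 54.8 and 41.6 CPM in wild-type DI, 12.9 and 13.1 CPM in untreated knockout and 18.6 and 16.8 CPM in untreated wild-type cells, and the difference of DI effects was -0.22 ± 0.32 (edgeR, adjusted p = 0.705). Mlxip, a glucose-sensing transcription factor, had 20.2 and 26.7 CPM in knockout DI against 55.5 and 37 CPM in wild-type DI libraries, and fell with DI in knockout, with a change of -0.94 ± 0.27 (edgeR, adjusted p = 0.0498), a call lost in 6 of the 8 fits that leave out 1 library.

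**Figure D4:**
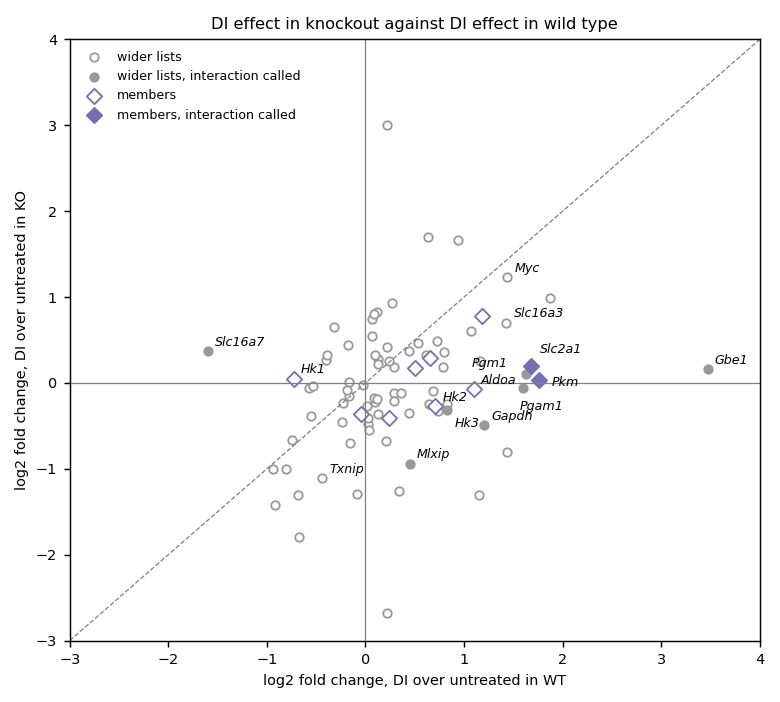
DI effect in knockout (vertical, log2) against DI effect in wild type (horizontal, log2) for the 10 members (diamonds) and the tested wider-list genes (circles), with filled symbols where the difference of the effects passed the test; the dashed line marks equal effects. Adm lies outside the axes, and Slc2a1 and Pkm sit near 0 on the vertical and between 1.6 and 1.8 on the horizontal axis.

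The 5 tested genes outside the lists whose centred profile over the 8 libraries lay closest to the members' mean profile were Mtfr1l, Arl8a, Psme3, Ctps2 and Bpnt1. Closeness is the root mean square distance in log2 CPM, which was 0.081, 0.084, 0.095, 0.104 and 0.104 in that order, against 0.205 (Hk2) to 0.573 (Hk1) for the members themselves. Mtfr1l had 28.8 and 30.7 CPM in knockout DI, 51.1 and 55.4 CPM in wild-type DI, 28.2 and 28.4 CPM in untreated knockout and 32.5 and 32.2 CPM in untreated wild-type libraries. These genes were picked for this likeness, so their values carry no test.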

How the data were processed

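Per the labels' protocols, poly(A) RNA was primed with a barcoded oligo-dT primer of 15 T, libraries were pooled, ligated and amplified by 12 PCR cycles, and no molecular identifier is described, so p-values and counts cover reads, not molecules. The authors deposited raw, unnormalized counts for each Ensembl gene. STAR, HTSeq, DESeq2 and the mm10 build are listed, with no version, per the submitters' processing notes. Symbols and coordinates came from GENCODE M21 for 21745 genes, and 420 without a symbol held 0.129% of counts.

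Genes were filtered by group at a minimum count of 10 and scaled by TMM, and all 8 libraries were fitted with 1 mean per group by edgeR 4.0.16 (R 4.3.3, robust quasi-likelihood). CPM were computed with the scaling of this fit. Standard errors and 95% intervals were derived from each change and its F statistic in the quasi-likelihood test. DESeq2 1.42.0, other scalings, no filter, a replicate block, fits of only the 2 groups compared, no robust estimation, and leaving out each library were alternatives. An offset for A-rich coding sequence, the highest number of A in 15 coding bases, was added after the data were seen. The edgeR fit was also run on simulated counts, drawn independently for each library with changes set only in wild-type DI. Such counts cannot show an effect of shared mice or a batch. The members and lists were chosen with earlier results of these data known. Named genes are all members, wider-list genes that passed a test, and the 5 genes with the likest profile; Hif1a was named after its values were seen.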

Additional observations from a re-analysis of the deposited data

Results flagged for a closer look

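The DI effect differed between genotypes, by the interaction test in edgeR at an adjusted p under 0.05, for 9 of the genes described. Of the 10 members 2 were lower, and of 76 wider-list genes tested 1 was higher and 6 lower. Over all genes tested 4.96% were higher and 2.59% lower. The DI effect in knockout minus that in wild type was -1.48 for Slc2a1 and -1.73 for Pkm among the 10 members. Among the wider lists it was -3.31 for Gbe1, -1.68 for Gapdh, -1.66 for Pgam1, -1.53 for Pgm1, -1.39 for Mlxip, -1.15 for Hk3 and 1.97 for Slc16a7. With 1 library left out in turn, Pkm, Pgam1 and Gbe1 kept this call in 8 of 8 fits. Slc16a7 kept it in 7, Slc2a1, Gapdh and Pgm1 in 6, Mlxip in 2 and Hk3 in 1.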

How the results depend on the processing

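With 2 libraries a group, counts of genes over the threshold moved with single libraries. Leaving out each library gave 29 to 598 genes higher and 74 to 491 lower for DI in knockout, 290 to 745 and 506 to 1001 for DI in wild type, 654 to 1203 and 520 to 1021 for knockout against wild type under DI, 1 to 16 and 10 to 65 without DI, and 137 to 609 and 101 to 324 for the difference of DI effects. Members higher with DI in wild type were 2 to 5, members lower 0 to 1, and members with a lower DI effect in knockout 1 to 3. Hk1 became 1 member lower in wild type with total counts without scaling, DESeq2, the replicate block or the A-rich offset. Without the filter, DI in knockout gave 1029 genes higher and 668 lower, knockout against wild type without DI 72 and 325, and the difference 1106 and 491. DESeq2 gave 36 and 155 genes for genotype without DI. Upper quartile scaling, total counts and the 2 groups alone each gave 14 higher there. Upper quartile scaling gave 438 genes and 4 members lower for the difference, where it shifted the median of all genes by -0.134; it shifted DI in knockout by -0.102, and total counts shifted genotype under DI by 0.106.

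Among the members, signs turned only in comparisons that they had not passed, and the cause was not tested. Upper quartile scaling gave -0.05 for Hk1 and -0.07 for Pkm with DI in knockout, and 0.03 for Pfkl and 0.04 for Tpi1 between untreated genotypes, where total counts gave 0.01 and 0.02. The A-rich offset gave 0.03 for Gpi1 and 0.01 for Tpi1 in the difference and 0.12 for Aldoa with DI in knockout. With 1 library left out, values for DI in knockout ran from -0.19 to 0.26 for Hk1, -0.01 to 0.38 for Gpi1, -0.72 to 0.19 for Pfkl, -0.45 to 0.23 for Aldoa, -0.13 to 1.34 for Pgk1 and -0.13 to 0.18 for Pkm. Between genotypes under DI they ran from -0.07 to 0.38 for Hk1 and -0.73 to 0.16 for Pfkl. Without DI they ran from -0.34 to 0.06 for Gpi1, -0.59 to 0.32 for Pfkl, -0.13 to 0.07 for Tpi1 and -0.1 to 0.18 for Ldha. For DI in wild type Pfkl ran from -0.56 to 0.34, and for the difference Pfkl ran from -0.69 to 0.25 and Pgk1 from -1.3 to 0.16.

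Replicate numbers gave no clear pairing of the libraries, with correlations of deviations of -0.0799 to 0.156 between groups. Only the difference between the 2 libraries of each group entered, so this cannot decide whether same-numbered libraries shared mice or a batch. The call of Hk2 in wild type was also lost with total counts without scaling (edgeR adjusted p = 0.0777), with the 2 groups alone (0.0778), without robust estimation (0.0513) and with the A-rich offset (0.0977). With the replicate block, Hk2 in wild type had an edgeR adjusted p of 0.0584, Hk1 of 0.0485, and the difference for Aldoa of 0.0466. Pfkl and Pgk1, at 29 to 184 reads per library, are the members with the least depth.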
